A study of Mus musculus with 2 samples.

Results

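The contractile genes of muscle were followed in the dorsolateral prostate of mice that overexpress the microRNA miR-32. They are 33 genes listed by their function: 19 of the smooth muscle that surrounds the glands and 14 of striated (skeletal) muscle, which adjoins the prostate. Each was read from its brightest probe over both arrays, found by matching the probes' RefSeq accessions to gene symbols. All 33 had at least 1 probe, and they stand among 18952 genes with a matched probe, 10434 of them detected. The tissue came from FVB/N mice at 6 months of age. One RNA pool was made from 6 mice carrying the ARR2PB-miR32 transgene, and the other from 6 wild-type mice. ARR2PB is a composite probasin promoter known to be active in prostate epithelium, and muscle is not where it is known to be active. Both pools were hybridised together on 2 arrays with exchanged dyes, transgenic RNA being labelled with Cy3 for array 1 and with Cy5 for array 2.

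Smooth muscle contracts when calcium activates myosin light chain kinase, which phosphorylates the regulatory light chain of the myosin motor and lets it pull on actin filaments. In the prostate this muscle forms sheaths around the ducts and expels the secretion. Striated muscle instead uses the troponin complex on its thin filaments as the calcium switch, and fast fibres carry their own myosin, actin and calcium pump genes.

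With 1 pool per genotype the arrays are technical repeats, so no test of genotype was possible. Each ± is the SD over the 2 arrays and measures the array and dye error alone. A ratio is the log2 of transgenic over wild-type signal. Genes were called higher or lower where the pools differed by at least 1.5-fold (0.58 in log2) in the same direction on each array. Pools are said not to overlap where both readings of a pool lay above both readings of the other. How often this held over all detected genes was not computed, so it describes the readings only. A gene was detected when a pool was well above background on both arrays. Of all spots, the transgenic pool was well above background at 58.3% on array 1 and 21.1% on array 2, and the wild-type pool at 42.1% on array 1 and 57.0% on array 2. The weakest channel was thus the transgenic pool in Cy5. In a tissue pool, fewer cells of a type and less RNA per cell cannot be told apart.

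The transgene product and a sequence feature of the muscle promoters are shown first, since the feature is what a part of the members shares beyond function. The mature microRNA of the transgene's name is given with its seed, bases 2 to 8, in capitals, from RefSeq GRCm38.p6.
mmu-miR-32-5p: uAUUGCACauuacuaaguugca
The CArG box, a sequence of 10 bases bound by serum response factor, is a known control element of muscle genes. It reads the same way on both strands in its pattern. It was searched in the RefSeq promoters of 300 bases (250 before and 50 after the gene start), which were given for 16 smooth and 11 striated members. No promoter was given for Actg2, Myh11, Tagln, Tnnt3, Tnni2 and Actn3, so these were not searched. A box stood in the promoters of Myl9 and Vcl among smooth members (12.5% of genes) and of Acta1 and Myh4 among striated members (18.2%), against 1.81% of all 27025 genes with a promoter and 1.63% of all promoters. The windows below have 10 bases on either side of the box, which is in capitals, and run along the gene's strand.
Myl9, chr2:156775293-156775322, plus strand: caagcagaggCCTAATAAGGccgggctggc
Vcl, chr14:20929161-20929190, plus strand: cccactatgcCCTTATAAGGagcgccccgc
Acta1, chr8:123894829-123894858, minus strand: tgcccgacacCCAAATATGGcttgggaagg
Myh4, chr11:67237698-67237727, plus strand: aaagagattgCCAAAAATGGttttgccaag
Coordinates are of GRCm38.p6. Relative to the gene start, the boxes begin at −161 (Myl9), −227 (Vcl), −73 (Acta1) and −104 (Myh4). Only exact matches to CC, a run of A or T, and GG over 10 bases were counted. A match describes letters and is no evidence of binding. Genes with no match may have a box outside the window, or one inside it that departs from this pattern.

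Of the 19 smooth muscle genes, 15 were detected, 14 of them in both pools on both arrays. None was called higher or lower, while 2.21% of all detected genes were called. The closest were Cald1, Myh11, Vcl and Myl9, each above 0 on both arrays at means of 0.50 to 0.76, and the lowest that agreed on both arrays was Des. The 15 had a median ratio of 0.17, against −0.06 over all detected genes. The median was 0.35 on array 1 and −0.05 on array 2. Ratios lay above 0 on both arrays for 6 of the 15 (40.0%, against 17.5% of all detected genes), below 0 on both for 1 (6.67%, against 28.0%), and had opposed signs for 8. Detection depended on the signal itself, so these shares describe the detected members only. Of the 10434 detected genes, 10424 were detected in the wild-type pool and 6056 in the transgenic pool. Many of all detected genes thus passed through the wild-type pool alone, unlike most smooth members, and the shares compare unlike sets. With detection in both pools, the median was 0.27 over 14 members, against −0.02 over all such genes. Over all 19 members with no detection filter the median was 0.16, against −0.01 over all 18952 genes.

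**Figure D1:**
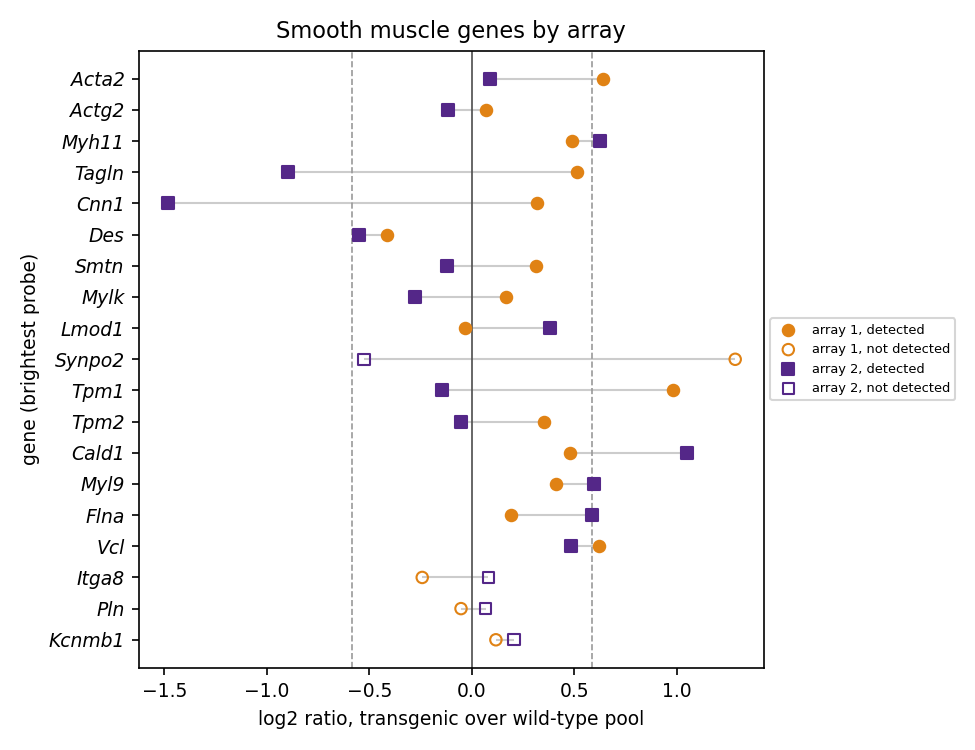
Log2 ratio of the transgenic over the wild-type pool for the 19 smooth muscle genes (rows), with array 1 as circles and array 2 as squares, open where the gene was not detected, and dashed lines at 1.5-fold. No detected gene has both of its points beyond the same dashed line, and Cnn1 and Tagln have their points furthest apart among the detected genes.

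The actins showed small ratios. Acta2, the α-actin of vascular and other smooth muscle, had normalized log2 signals of 13.13 and 13.06 in the transgenic pool on arrays 1 and 2, against 12.49 and 12.97 in the wild-type pool. The pools did not overlap, though barely on array 2, where the ratio was 0.09 after 0.64 on array 1 (0.36 ± 0.39, or 1.29-fold). This probe is printed 10 times on each array, and its spots ranged from −0.03 to 1.30 on array 1 and from −1.13 to 1.16 on array 2, so that spots of the same array differed by more than the arrays did. Actg2, the γ-actin of visceral smooth muscle, had signals of 9.83 and 10.13 in the transgenic pool and 9.76 and 10.25 in the wild-type pool, with a mean ratio of −0.02 ± 0.13. Actin genes are close in coding sequence, and cross-hybridisation of their probes was not tested.

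Among genes of the myosin motor, the heavy chain and the light chain were above 0 on both arrays and the kinase was not. Myh11, the smooth muscle myosin heavy chain, had signals of 11.22 and 11.27 in the transgenic pool against 10.73 and 10.65 in the wild-type pool. The pools did not overlap, and the ratios of 0.49 and 0.62 (0.56 ± 0.09, 1.47-fold) missed the rule on array 1. The ratios computed by the scanner's Feature Extraction software, used as a second reading throughout, were 0.69 and 0.41. Myl9, the regulatory light chain, had signals of 13.93 and 14.09 in the transgenic pool against 13.51 and 13.49 in the wild-type pool (0.50 ± 0.13, 1.42-fold). Its Feature Extraction ratio on array 2 was 0.01. Mylk, the light chain kinase, was at 0.17 and −0.28 (−0.05 ± 0.31).

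The thin filament held the highest and the lowest mean of the detected smooth muscle genes. Cald1, caldesmon, which restrains actomyosin, had signals of 8.68 and 8.69 in the transgenic pool against 8.20 and 7.64 in the wild-type pool. These did not overlap, and the ratios of 0.48 and 1.05 gave 0.76 ± 0.40 (1.70-fold). A further detected Cald1 probe had ratios of 0.68 and 0.66, past 1.5-fold on each array, so the call turned on which probe stood for the gene. With the Feature Extraction ratios the brightest Cald1 probe, at 0.74 and 1.13, was the single smooth muscle gene called higher, where 2.37% of all detected genes were called higher. With median centring the ratio of Cald1 was 0.45 on array 1 and −0.18 on array 2.

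Cnn1 and Tagln, which encode calponin and transgelin, actin-binding proteins typical of differentiated smooth muscle, moved oppositely on the arrays. Cnn1 had signals of 14.00 and 11.77 in the transgenic pool against 13.68 and 13.25 in the wild-type pool, and ratios of 0.32 and −1.48 (−0.58 ± 1.27). Tagln had 13.61 and 12.62 in the transgenic pool against 13.09 and 13.51 in the wild-type pool, and ratios of 0.51 and −0.90 (−0.19 ± 1.00). The pools overlapped for both genes, and for each the transgenic signal of array 2 was the lowest of the 4 readings. The Feature Extraction ratios were narrower, at 0.24 and −0.43 for Cnn1 and −0.08 and 0.09 for Tagln.

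The tropomyosins, which lie along the actin filament, differed between probes. Tpm1 had ratios of 0.98 and −0.15 (0.42 ± 0.80) on its brightest probe, while the next brightest had −0.60 and −1.13 and was called lower. With the Feature Extraction ratios these probes stood apart in the same way, at 0.74 and 0.40 against −0.40 and −0.44. Transcript isoforms were not resolved. Tpm2 was at 0.35 and −0.05 (0.15 ± 0.29), and its other detected probe at 1.09 and −1.22. Lmod1, leiomodin, which seeds actin filaments, was at −0.03 and 0.38 (0.17 ± 0.29), and Smtn, smoothelin, a marker of contractile smooth muscle, at 0.31 and −0.12 (0.10 ± 0.31), above background in the transgenic pool on array 1 only.

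Genes that anchor the contractile apparatus split in direction. Vcl, vinculin of the adhesion plaques, had signals of 9.08 and 8.69 in the transgenic pool against 8.46 and 8.21 in the wild-type pool. The pools did not overlap, and the ratios of 0.62 and 0.48 (0.55 ± 0.10, 1.47-fold) missed the rule on array 2. Flna, filamin A, which crosslinks actin, had 13.06 and 13.21 in the transgenic pool against 12.87 and 12.63 in the wild-type pool (0.39 ± 0.28). Des, the desmin intermediate filament, had 7.97 and 8.50 in the transgenic pool against 8.39 and 9.05 in the wild-type pool. The pools overlapped across arrays, and within each array the transgenic pool was lower. Its ratios were −0.41 and −0.55 (−0.48 ± 0.10, 1.40-fold lower), each short of 1.5-fold, and −0.60 and −0.58 with the Feature Extraction ratios. Over its 10 spots the SD was 0.41 on array 1 and 0.33 on array 2, with all spots of array 2 below 0 (−0.99 to −0.05).

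The remaining smooth muscle genes could not be measured well. Synpo2, an actin-binding protein of the Z-disc and of smooth muscle, was above background in the transgenic pool on array 1 and in the wild-type pool on array 2 only, with ratios of 1.28 and −0.53. Itga8, an integrin α-chain, was also above background once in each pool (−0.24 and 0.08). Pln, phospholamban, which restrains the calcium pump of the sarcoplasmic reticulum, and Kcnmb1, a subunit of the calcium-activated potassium channel, were not well above background in either pool on either array, and no fold is given.

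**Figure D2:**
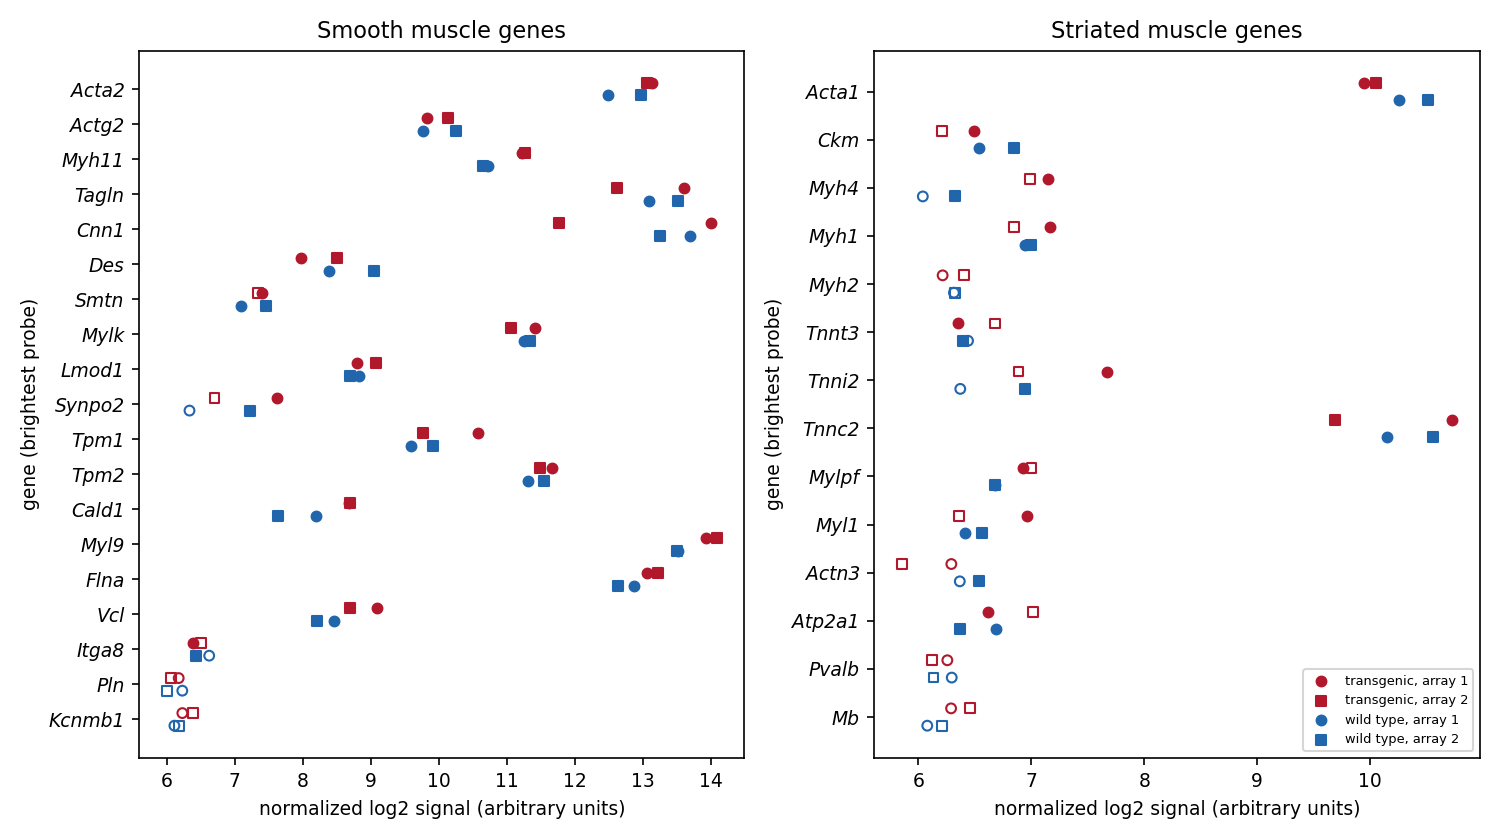
Normalized log2 signal of each gene's brightest probe in the transgenic pool (red) and the wild-type pool (blue) on array 1 (circles) and array 2 (squares), with smooth muscle genes on the left and striated muscle genes on the right; open symbols were not well above background. Among detected genes, the pools of Acta2, Myh11, Cald1, Myl9, Flna, Vcl and Mylpf are separate with the transgenic pool higher, those of Acta1 and Ckm with it lower, and most striated muscle genes lie near the background. The share of all detected genes with separate pools was not computed, so this describes the readings only. The transgenic readings of Mylpf and Ckm were above background on array 1 only. Levels compare pools within a row, not rows.

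Of the 14 striated muscle genes, 7 were detected and only Acta1 and Tnnc2 in both pools on both arrays. The others, Ckm, Myh1, Mylpf, Myl1 and Atp2a1, passed through the wild-type pool alone. Their transgenic signal was above background on array 1 only, so shares of the 7 rest on members selected through that pool. None of the 7 was called, beside the 2.21% of all detected genes. By the brightest probes, the transgenic pool was above background for 10 of the 14 on array 1 and 2 on array 2, against 7 on array 1 and 11 on array 2 for the wild-type pool, so that each pool was read more often in Cy3; the part of the dye in the ratios was not tested. The median ratio of the 7 was 0.04, with 0.22 on array 1 and −0.20 on array 2. Only Mylpf was above 0 on both arrays (14.3%, against the 17.5% of all detected genes), and Acta1 and Ckm were below 0 on both (28.6%, against 28.0%), so these shares lay near those of all genes. The defining markers were thus sparse: Acta1 and Tnnc2 were measured throughout, and Pvalb and Mb were not well above background in either pool on either array. Myh2 was so on its brightest probe, while a dimmer probe was above background in the transgenic pool on 1 array.

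**Figure D3:**
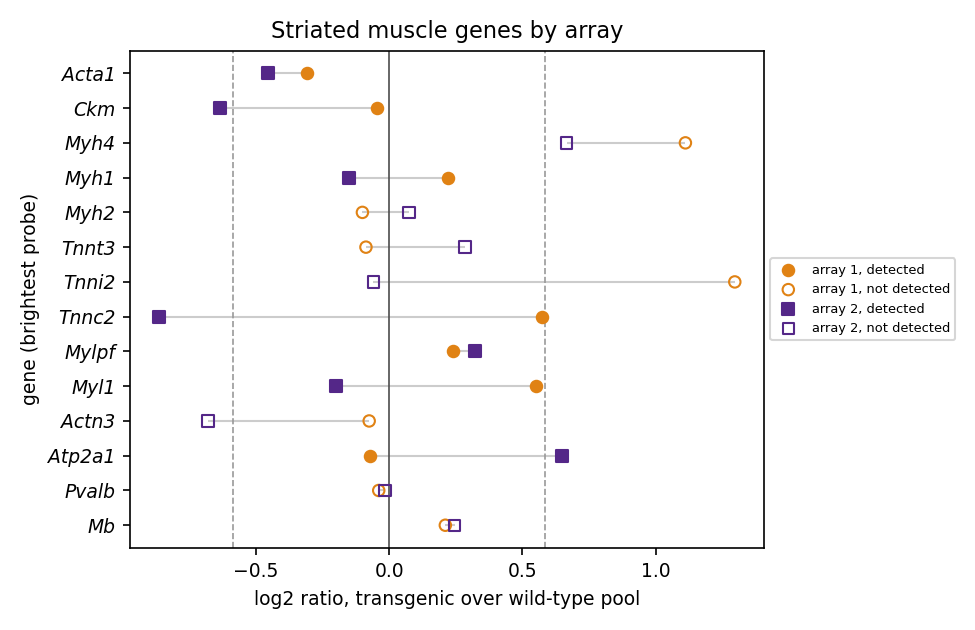
Log2 ratio of the transgenic over the wild-type pool for the 14 striated muscle genes (rows), with array 1 as circles and array 2 as squares, open where the gene was not detected, and dashed lines at 1.5-fold. Myh4 alone has both points beyond the same line, and it was not detected.

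In the thick filament, the fast myosin heavy chains differed in how well they were read. Myh4, the heavy chain of the fastest (type IIb) fibres, had signals of 7.15 and 6.99 in the transgenic pool against 6.04 and 6.32 in the wild-type pool. These did not overlap and gave ratios of 1.11 and 0.67 (0.89 ± 0.31), but the gene was above background on 1 array in each pool, array 1 for the transgenic and array 2 for the wild-type pool. Its ratios were 3.54 and 3.04 with the Feature Extraction ratios, the largest among the members by that measure, and 0.89 and 0.45 with no background subtraction. Its other probe, at 0.30 and −0.15, did not repeat the difference. Myh1, the type IIx heavy chain, had signals of 7.16 and 6.85 in the transgenic pool against 6.94 and 7.00 in the wild-type pool (0.04 ± 0.26). Its transgenic signal was above background on array 1 only. Myh2, the type IIa heavy chain, was at −0.10 and 0.07 on its brightest probe, which was not above background, and at −0.14 and −0.11 on the probe that was so once. These heavy chains are close in sequence, and cross-hybridisation was not tested.

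Neither fast light chain was called. Mylpf, the phosphorylatable fast light chain, had signals of 6.92 and 7.00 in the transgenic pool and 6.68 on each array in the wild-type pool (0.28 ± 0.06). Those of the transgenic pool were above background on array 1 only. Myl1, an essential light chain, was at 0.55 and −0.20 (0.17 ± 0.53), and was also above background in the transgenic pool on array 1 only.

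Among thin filament genes, Acta1, the skeletal α-actin, had signals of 9.95 and 10.06 in the transgenic pool against 10.26 and 10.51 in the wild-type pool. The pools did not overlap, and its ratios of −0.31 and −0.45 (−0.38 ± 0.10, 1.30-fold lower) fell short of the rule. They were −0.22 and −0.10 with the Feature Extraction ratios. Tnnc2, the calcium-binding troponin C of fast fibres, had 10.73 and 9.69 in the transgenic pool against 10.15 and 10.55 in the wild-type pool, overlapping, with ratios of 0.58 and −0.86 (−0.14 ± 1.02). Its Feature Extraction ratios were 0.14 and 0.18. Tnni2, the inhibitory troponin I, had ratios of 1.30 and −0.06 and was above background once in each pool, as was Tnnt3, the tropomyosin-binding troponin T (−0.09 and 0.28). Actn3, the α-actinin of fast fibres, was not above background in the transgenic pool on either array and was so in the wild-type pool on array 2 only. Its ratios were −0.07 and −0.68, and −1.04 and 0.00 by Feature Extraction, and no fold is given.

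The genes of calcium and energy supply gave no shared direction. Atp2a1, the calcium pump SERCA1, was at −0.07 and 0.65 (0.29 ± 0.51), and Ckm, the muscle creatine kinase, at −0.05 and −0.64 (−0.34 ± 0.42). Both were above background in the transgenic pool on array 1 only. Pvalb, parvalbumin, a calcium buffer (−0.04 and −0.01), and Mb, the oxygen-storing myoglobin (0.21 and 0.25), had no signal above background.

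**Figure D4:**
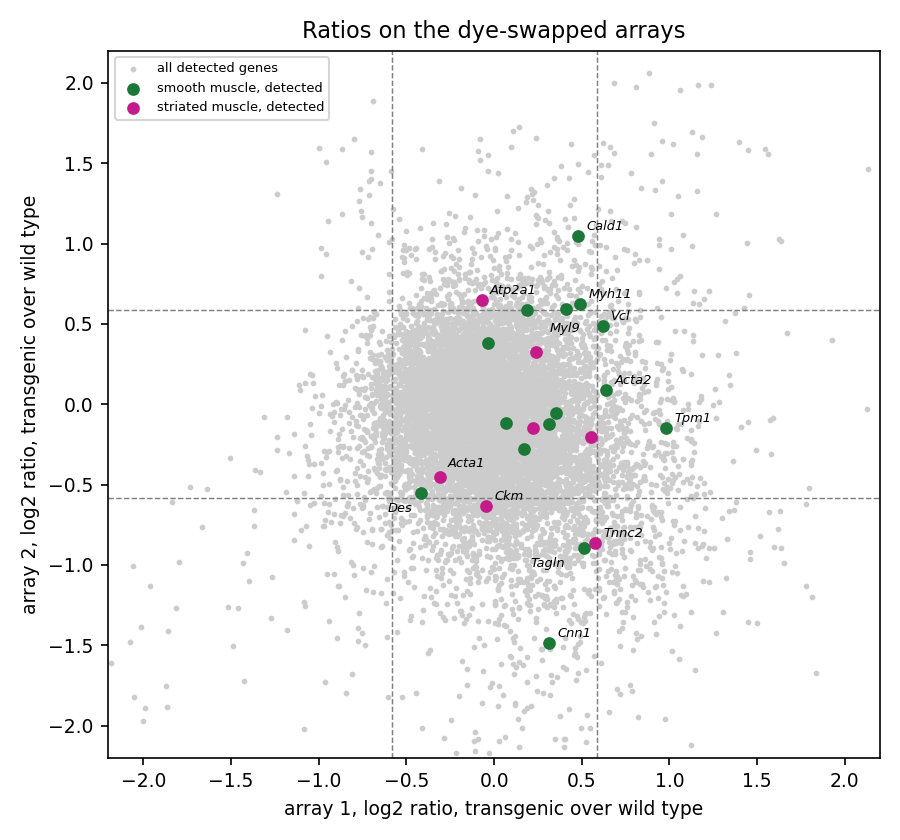
Log2 ratio of transgenic over wild-type on array 1 (x axis) and array 2 (y axis) for all detected genes (grey), detected smooth muscle genes (green) and detected striated muscle genes (magenta), with dashed lines at 1.5-fold; 78 detected genes lie beyond the axes. Cald1, Myh11, Vcl and Myl9 lie toward the upper right corner, Des and Acta1 toward the lower left, and Cnn1, Tagln and Tnnc2 at lower right, where the arrays oppose each other.

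Further probes of the members often differed from the brightest. The 19 smooth muscle genes had 36 probes, 27 of them detected, and 8 genes had more than 1 detected probe. Of these 8, Tpm1, Tpm2 and Flna had probe means of opposite sign. Among the 27 detected probes, 1 was called higher (Cald1) and 1 lower (Tpm1). The 4 detected Acta2 probes had means between 0.02 and 0.36, and the means of the 2 Vcl probes were 0.21 and 0.55. The striated genes had 21 probes, 7 detected, and no gene had more than 1.

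Of 7 further lists of muscle genes, 4 held called genes, 1 or 2 each. These 4 had 4 to 21 detected genes each, so a single call is enough to exceed the 2.21% of all detected genes. Their shares are therefore not compared with it. Of 25 regulators and adhesion genes of smooth muscle, 21 were detected and 1 was higher. This was Pgm5, aciculin, a partner of the dystrophin complex, at 0.92 and 1.33 (1.13 ± 0.29). The call ended with the Feature Extraction ratios (0.18 on array 1), and the other detected Pgm5 probe had a mean of 0.44. The largest ratios of that list ran the other way on array 2 and were not called: Csrp1, a LIM protein of smooth muscle, at 0.25 and −3.58, and Tln1, talin of the adhesion plaques, at −0.22 and −2.17. Both were above background in the transgenic pool on 1 array only. The 3 detected probes of Tln1 had means from −1.19 to −0.18. The list median was 0.06, and Myocd, the smooth muscle coactivator myocardin, was not detected. Of 16 ion channels and receptors, 8 were detected with a median of −0.02, and 1 was higher, the calcium release channel Itpr1 at 0.68 and 2.00. Its Feature Extraction ratio was −0.04 on array 1, and its other detected probe had a mean of −0.18. Of 25 further sarcomere and excitation genes of striated muscle, 6 were detected, with a median of 0.09, and 1 was higher. This was Ldb3, the Z-disc protein cypher, at 0.69 and 0.91 (0.80 ± 0.16) and at 1.22 and 1.82 with the Feature Extraction ratios. Nrap, of the myotendinous junction, was at 0.24 and 0.74, and the tropomyosin Tpm3 at −0.54 and −0.27. Of 11 genes of striated muscle metabolism, 4 were detected and 2 were lower, Car3 at −1.02 and −3.05 and Cox8b at −1.80 and −0.98. Both were above background in the transgenic pool on 1 array only, so they passed detection through the wild-type pool alone. Car3 is also abundant in white fat and Cox8b in brown fat. Of 7 slow-fibre genes, 3 were detected and none was called. Atp2a2, the SERCA2 pump also used by smooth muscle, was at 0.42 ± 0.02, Tnnt1 (a slow troponin T) at 0.29 ± 0.01 and Myh7 at 0.19 ± 0.07. The 3 detected probes of Atp2a2 had means from −0.17 to 0.42. Tnnt1 and Myh7 were above background in the transgenic pool on 1 array only. Their Feature Extraction ratios lay much further apart, at 0.03 and 1.63 for Tnnt1 and 0.44 and 2.59 for Myh7. None of 6 myogenic factors, Myod1 and Myog among them, was detected, and Actc1 alone of 7 heart muscle genes was (−0.05 ± 0.12).

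Markers of other cells were read beside the muscle genes, with signals summed over each list's detected genes on a linear scale. The smooth muscle genes summed to 56612 to 74513 in the transgenic pool, against 56697 to 58345 in the wild-type pool, and the striated ones to 2420 to 3260 against 2868 to 3483, with overlap in both. Adipocyte markers summed to 1943 to 2144 in the transgenic pool against 6787 to 7682 in the wild-type pool. Of 7 detected, 4 were lower (Cfd, Fabp4, Adipoq and Cidec), where 136 of all 10434 detected genes were lower. None of the 6 myeloid means was above 0 (median −0.56), against 40.6% of all detected genes. Cfd, Adipoq and the myeloid C1qa, C1qb and Adgre1 were above background in the transgenic pool on 1 array only. They passed detection through the wild-type pool alone, so the adipocyte and myeloid values rest partly on genes selected through that pool. The part of fat or other cells in the muscle values was not tested. Of 8 fibroblast genes none was called (median −0.29, sums of 4033 to 11259 against 6200 to 10989), nor any of 6 pericyte (−0.01), 4 nerve (−0.05), 4 endothelial (−0.10) or 5 basal epithelial genes (−0.03). Of 8 luminal genes, 1 was lower (Hoxb13).

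The medians depended on the processing. With the Feature Extraction ratios, 9 of the 15 detected smooth muscle genes (60.0%) and 4 of the 7 striated genes (57.1%) were above 0 on both arrays, against 20.5% of all detected genes. The medians were then 0.20 for smooth and 0.16 for striated genes, against −0.11 for all. Many of all detected genes passed through the wild-type pool alone, so these shares and medians compare unlike sets. Median centring put the smooth muscle median at −0.65 and the striated one at −0.17, against −0.57 for all detected genes, so that the smooth muscle median was no longer the higher.

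**Figure D5:**
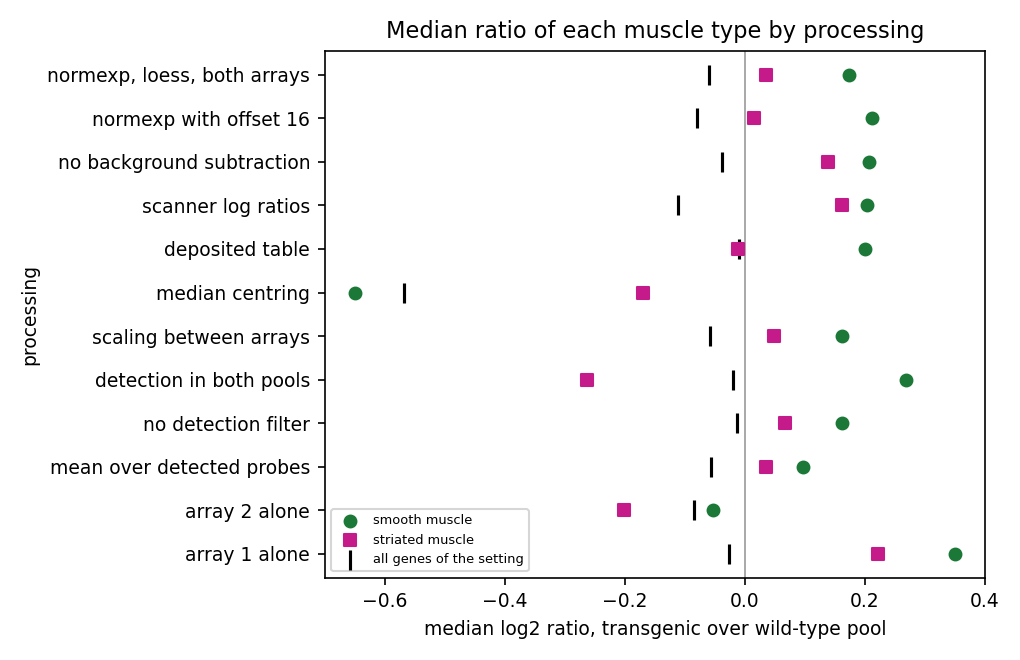
Median log2 ratio of transgenic over wild-type (x axis) for the detected smooth muscle genes (circles) and striated muscle genes (squares) under each processing (rows), with the median of all genes in that setting as a bar. The smooth muscle median lies above that of all genes in each setting drawn except median centring, and the striated median is below it with detection in both pools and on array 2 alone, and nearly level with it in the deposited table.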

How the data were processed

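RNA (Trizol) was labelled for Agilent arrays read in 2 colours, per the labels. The intensities used are the deposited median signals of spot and background per dye, uncorrected. The deposited log10 ratio of Cy5 over Cy3, here turned to log2, came from Feature Extraction, whose version the file headers give as 11.0.1.1. The authors' deposited table holds 8533 rows of log2 ratios; it matched the Feature Extraction ratios of transgenic over wild type with a slope of 1 (r = 1 on each array) and column medians of −0.0001 and −0.0006. Its filter is not stated.

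Signals were corrected with normexp (offset 50) and normalized by loess within each array in limma 3.58.1 (R 4.3.3), with control and outlier spots at weight 0. Outlier spots (157 and 177 of 43379) were left out, spots of a probe averaged, and no spot was saturated. Pool signals were taken after Aquantile normalization. Of 41174 probes, 27816 matched a symbol of GRCm38.p6. The array annotation cites another build, so no probe coordinates are given. Direction follows the dyes in the labels. The calling rule was checked on simulated ratios. These had no background floor and no weak channel, so the check does not cover the dim genes of these arrays. No p-values were computed. Precision is limited by having 2 arrays, of which array 2 had a weak Cy5. All members are named, and from each other list the genes past 1.5-fold, with some of those with the largest ratios. The members and lists were chosen with earlier results of these data known. The alternatives were another offset, no background subtraction, Feature Extraction ratios, the deposited table, median centring, scaling between arrays, other detection and probe rules, and each array alone. Tables were made with pandas 2.3.3 and numpy 2.4.6, and figures with matplotlib 3.10.9, in Python 3.11.15.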

Additional observations from a re-analysis of the deposited data

How the results depend on the processing

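No detected smooth or striated muscle gene was called, and this held for smooth muscle genes with no background subtraction, median centring, scaling between arrays, both other detection rules and the mean over probes. With an offset of 16, 1 was called higher (Vcl, 0.65 and 0.60), with the Feature Extraction ratios 1 (Cald1), and 2 in the authors' deposited table (Cald1 higher, and Des lower at −0.60 and −0.61). For striated genes 1 was called with no detection filter (Myh4). The arrays alone called 3 to 6 of the 15 smooth and 0 to 3 of the 7 striated genes, against 1403 to 2114 of all 10434 detected genes. Array 1 alone called Acta2, Tpm1 and Vcl higher, and array 2 alone Myh11, Cald1, Myl9 and Flna higher, Tagln and Cnn1 lower, and of the striated genes Atp2a1 higher and Ckm and Tnnc2 lower. The smooth median of 0.17 was −0.65 with median centring, and ran between −0.05 and 0.35 on single arrays, the striated one between −0.20 and 0.22. Over all detected genes, 231 were called (95 higher and 136 lower), 389 with an offset of 16, 875 with the Feature Extraction ratios (247 and 628), 556 with median centring (2 and 554), and 1403 to 2114 on single arrays. The split was 178 to 119 in the deposited table and 94 to 76 with detection in both pools. For single genes, the mean of Cald1, Des, Acta1, Ckm and Mylpf kept its sign in each alternative that gave a value. The cause of these shifts was not tested. In Cy5, 2 of the 14 striated genes were above background in the transgenic pool (array 2) and 7 in the wild-type pool (array 1). No paired analysis was possible because both arrays hold the same RNA and each genotype has 1 pool.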
